A study of Mus musculus with 6 samples.

Results

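Mest, Sfrp5, Npr3, Bmp3 and Nnat, whose RNA in mouse fat is known to vary with adipocyte size and fat expansion, were followed in the epididymal fat pad, a visceral white fat depot of male mice. They were found by symbol in the table of 21829 genes, and all 5 were present, each above the filter of a mean of at least 1 FPKM (fragments counted per unit of transcript length and of sequencing depth) that left 12539 genes. The mice were C57BL/6J males, 20 weeks old, fed a normal diet. Their libraries are 3 with the genotype label Wild (WT 1 to WT 3) and 3 with the label ZFP251 KO (KO 1 to KO 3). Values for several libraries are given in the order of their numbers. The WT mice were littermates of the ZFP251 KO mice. How the allele was made is not given in the sources used here. Nothing ties a library to 1 mouse, so a p-value covers the spread among libraries, part of which may be technical. The 5 genes were chosen by their symbols with the FPKM differences between these 2 groups in view, so their own differences are given as a description, with no test.

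White fat expands by enlarging its adipocytes and by adding new ones. Mest is an imprinted gene, expressed from the paternal allele, that encodes a protein of the alpha/beta hydrolase family. Its RNA is low in the fat of lean mice, climbs during fat expansion, and differs between genetically identical mice in step with fat gain. Sfrp5 encodes a secreted protein that binds Wnt ligands, Npr3 the clearance receptor that removes natriuretic peptides, and Bmp3 a secreted member of the BMP family that restrains BMP signalling. Nnat, also imprinted and paternally expressed, encodes a small membrane protein of the endoplasmic reticulum.

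Zfp251 itself went against the labels. It stood at 3.73, 3.56 and 2.95 FPKM in WT 1 to 3 and higher, at 6.48, 5.86 and 6.48 FPKM, in KO 1 to 3 (limma adjusted p = 0.223; two-sided exact permutation p = 0.1, the smallest that this design allows). A gene-level value does not show which exons were read, so every direction below is that of the libraries labelled KO. Adipocyte markers were abundant in all 6 libraries, and the 16 markers summed to between 42952 and 101887 FPKM. Epithelial RNA separated the WT libraries from each other. Epcam, an epithelial adhesion molecule, had 14.2 FPKM in WT 1, 0.199 in WT 2 and 0.191 in WT 3, and 30.8, 34.3 and 16.4 FPKM in KO 1 to 3. With limma 0 of 12539 genes (0%) passed an adjusted p of 0.05 between the groups, and 1700 (13.6%) had an unadjusted p under 0.05, 9.13% higher and 4.43% lower in the libraries labelled KO. Without WT 1, 482 genes passed. The groups did not overlap in 22.2% of the genes, with KO above WT in 10.1% and below in 12.2%.

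The sequences upstream of Mest and Sfrp5 are shown because these genes had the largest differences of the 5. Each is the 250 bases before a RefSeq start site on GRCm38.p6, 5′ to 3′ on the gene's strand, with CpG dinucleotides, the sites of DNA methylation, in capitals. The Mest window lies before its second start site at chr6:30737800-30738049 on the plus strand, and the Sfrp5 window at chr19:42202253-42202502 on the minus strand.
Mest: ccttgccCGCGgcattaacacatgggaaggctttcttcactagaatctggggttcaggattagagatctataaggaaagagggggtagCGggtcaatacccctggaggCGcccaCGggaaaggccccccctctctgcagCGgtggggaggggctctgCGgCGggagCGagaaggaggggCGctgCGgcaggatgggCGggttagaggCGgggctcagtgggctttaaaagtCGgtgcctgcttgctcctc
Sfrp5: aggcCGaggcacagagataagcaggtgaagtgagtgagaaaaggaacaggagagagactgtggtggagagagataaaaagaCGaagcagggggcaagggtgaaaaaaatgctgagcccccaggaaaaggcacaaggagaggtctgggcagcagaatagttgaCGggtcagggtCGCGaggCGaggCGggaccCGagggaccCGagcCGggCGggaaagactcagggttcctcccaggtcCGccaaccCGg
The Mest window holds 14 CpG and the Sfrp5 window 13, against a median of 6 over 32536 such windows, and 70.4% and 68.2% of windows hold fewer. Mest has another start upstream, whose window at chr6:30733256-30733505 holds 7 CpG. The Nnat window holds 12 and the Npr3 window 6. The motif TATAAA, searched on both strands, was in none of the windows of these 4 genes and in 12.3% of all. The motif CCAAT, searched likewise, was in the Npr3 window and in 33.8% of all. A gene-level FPKM does not tell the Mest starts apart.

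Compared per length of transcript, the 5 genes spanned most of the range of expression among the 12539 genes above the filter. Nnat was the 22nd most abundant of the 12539 genes, with a mean of 1514 FPKM over the 6 libraries. Npr3 followed with 117 and Mest with 76 FPKM, then Sfrp5 with 11.6 and Bmp3 with 2.17 FPKM, above 10.1% of those 12539 genes. The order Nnat, Npr3, Sfrp5, Bmp3 was the same in every library. Mest was below Npr3 in all 3 WT libraries and in KO 1, and above it in KO 2 and KO 3.

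Mest was the 1 gene of the 5 whose groups did not overlap. It had 17.7, 38.1 and 39.5 FPKM in WT 1 to 3, and 142, 101 and 118 FPKM in KO 1 to 3. That is 1 of the 5 genes, where KO was above WT in 10.1% of all genes, and since this contrast chose the genes nothing is read from the share. The lowest library labelled KO stood above the highest WT library, and WT 1 was the lowest of all. The WT mean was 31.8 ± 12.2 FPKM (SD, n = 3) and the mean of those labelled KO 120 ± 20.2 FPKM (SD, n = 3), a ratio of 3.78. On the log2(FPKM + 1) scale the difference was 1.95 (standard error 0.31), the 150th highest of the 12539 genes. With a library left out it ran from 1.59, without WT 1, to 2.15, without WT 3.

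Adipocyte and epithelial markers differed in level between the same groups, and their part in the Mest difference was not tested. Of the 16 adipocyte markers 15 had lower values in the libraries labelled KO (median log2 difference -0.39, against -0.05 over all genes), and 8 had groups that did not overlap, against 12.2% of all genes with KO below WT. Summed, the 16 adipocyte markers had 61799, 58224 and 101887 FPKM in WT 1 to 3. In KO 1 to 3 the sums were 42952, 44085 and 51826 FPKM. WT 3 also had the largest sum over all genes, 637902, against 472120 in WT 1 and 468499 in WT 2. Adipoq, which encodes adiponectin, had 2792, 2844 and 5889 FPKM in WT 1 to 3 and 2097, 2214 and 2496 FPKM in KO 1 to 3. As a share of Adipoq, Mest was 0.635%, 1.34% and 0.671% in WT 1 to 3. The share was 6.75%, 4.58% and 4.71% in KO 1 to 3, above every WT library. Adipoq itself was lower in each library labelled KO than in any WT library, which raises such a share. The share of Bmp3, whose FPKM overlapped, was also above every WT library. It was 0.058%, 0.050% and 0.046% in WT 1 to 3 and 0.199%, 0.067% and 0.065% in KO 1 to 3. The shares of Sfrp5, Npr3 and Nnat overlapped. In bulk tissue fewer cells of a type and less RNA per cell cannot be told apart. All 13 tested of 16 tubule epithelium markers had higher values in the libraries labelled KO, and 12 of the 13 were higher in WT 1 than in WT 2 and WT 3. The 16 markers summed to 396, 369 and 122 FPKM in WT 1 to 3, and in KO 1 to 3 their sums were 612, 717 and 358 FPKM. Cldn4, Cldn7, Pax2, Elf3 and Slc9a3 were listed at 0 in WT 2 or WT 3. Within WT, the library with the most Epcam had the least Mest. Aqp1, which endothelium also expresses, made up most of these sums. Of the other marker lists the median log2 difference was -0.08 for 12 adipose progenitor, -0.22 for 7 mesothelial, -0.24 for 8 macrophage, 0.01 for 7 endothelial, 0.45 for 7 mural and -0.11 for 3 neuron and Schwann cell markers.

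**Figure D1:**
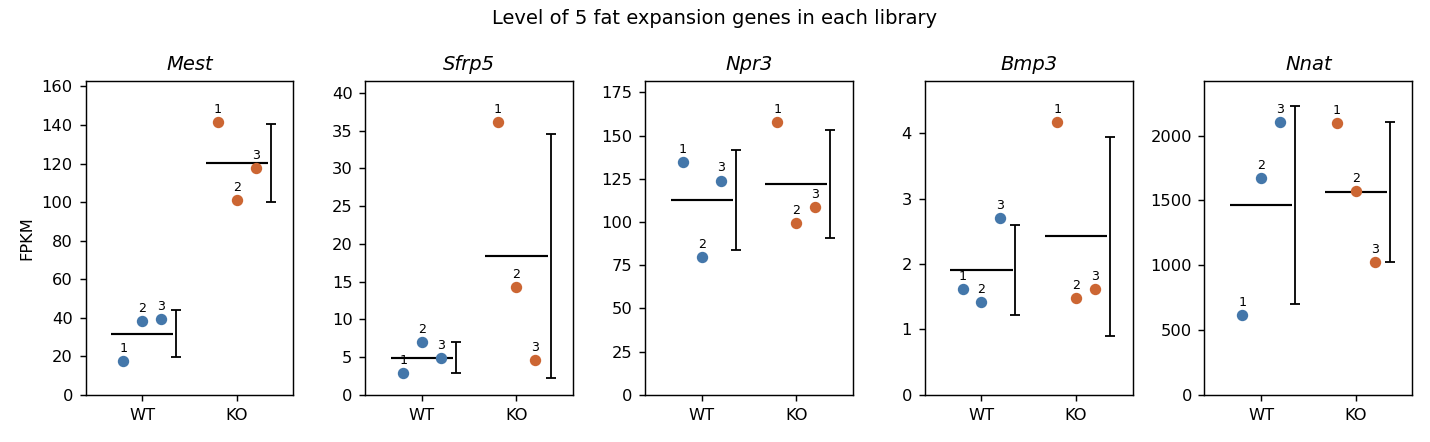
FPKM of Mest, Sfrp5, Npr3, Bmp3 and Nnat in the 3 WT (blue) and 3 labelled KO (orange) libraries, numbered by replicate, each panel on its own axis from 0. Lines are means and bars the SD (n = 3); the groups are apart for Mest only, and KO 1 is the highest library labelled KO in all 5 panels.

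Sfrp5 (ENSMUSG00000018822, chromosome 19 from 42197971 to 42202252, minus strand) had the most uneven values of the 5 within a group. It had 36.2 FPKM in KO 1, 14.3 in KO 2 and 4.63 in KO 3, a 7.82-fold span. WT 1 to 3 had 2.87, 7.05 and 4.91 FPKM. KO 1 and KO 2 were above every WT library, while KO 3 lay among them, so the groups overlapped and 7 of the 9 pairs of libraries had the one labelled KO higher. The WT mean was 4.94 ± 2.09 FPKM (SD, n = 3) and the mean of those labelled KO 18.3 ± 16.2 FPKM (SD, n = 3), and the log2 difference was 1.37 (standard error 0.65). It was 0.70 without KO 1 and 2.07 without KO 3. The SD of Sfrp5 within groups, 1.03 on the log2 scale, was larger than that of 99.03% of the genes. KO 3 was also the library labelled KO with the least Epcam; whether that bears on Sfrp5 was not tested.

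Npr3 (ENSMUSG00000022206, chromosome 15 from 11839896 to 11907287, minus strand) had similar means in the groups. It had 135, 79.7 and 124 FPKM in WT 1 to 3, and 158, 99.4 and 109 FPKM in KO 1 to 3. The ranges overlapped, with the highest value in KO 1 and the lowest in WT 2. The WT mean was 113 ± 29.1 FPKM (SD, n = 3) and the mean of those labelled KO 122 ± 31.4 FPKM (SD, n = 3). The log2 difference was 0.12 (standard error 0.26), and it was -0.11 without WT 2 and -0.08 without KO 1. WT 1 had the most Npr3 of the WT libraries and the least Mest, so that Mest was 0.132 times Npr3 there, against 0.479 and 0.319 in WT 2 and WT 3. In KO 1 to 3 Mest was 0.897, 1.02 and 1.08 times Npr3. The ratio did not overlap between the groups, but neither did Mest alone, so it is no separate result.

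Bmp3 (ENSMUSG00000029335, chromosome 5 from 98854415 to 98884396, plus strand), the least abundant of the 5, stood out in a single library. KO 1 had 4.17 FPKM, against 1.47 in KO 2 and 1.62 in KO 3. WT 1 to 3 had 1.61, 1.42 and 2.70 FPKM, so that KO 2 and KO 3 lay inside the WT range. The WT mean was 1.91 ± 0.691 FPKM (SD, n = 3) and the mean of those labelled KO 2.42 ± 1.52 FPKM (SD, n = 3). The log2 difference was 0.17 (standard error 0.32), and without KO 1 it was -0.17.

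Nnat (ENSMUSG00000067786), the most abundant of the 5, had 614, 1675 and 2104 FPKM in WT 1 to 3, and 2098, 1573 and 1021 FPKM in KO 1 to 3. The lowest and the highest value were both in WT libraries, WT 1 and WT 3, a 3.43-fold span, and KO 1 was close to WT 3. The WT mean was 1464 ± 767 FPKM (SD, n = 3) and the mean of those labelled KO 1564 ± 538 FPKM (SD, n = 3). The log2 difference of 0.21 had a standard error of 0.50, and it was -0.32 without WT 1 and -0.03 without KO 1. Of the 2 imprinted genes, Mest had groups that stood apart and Nnat had not; the difference between them was not tested.

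Across the 5 genes, KO 1 was the highest library labelled KO every time and the highest of all 6 for 4 of them. KO 1 was the highest of the libraries labelled KO in 31.9% of all tested genes. WT 1 was the lowest WT library for Mest, Sfrp5 and Nnat, and for 29.3% of all tested genes. These counts describe shared libraries and carry no test.

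**Figure D2:**
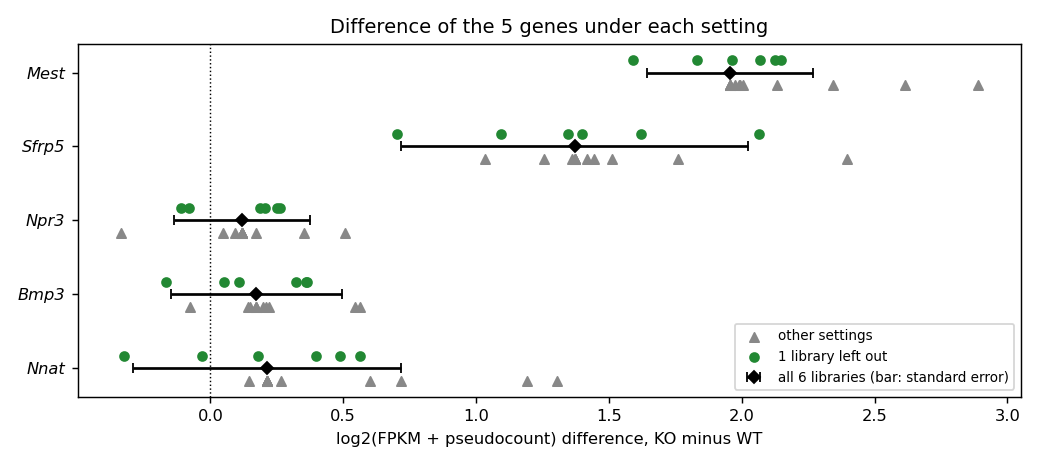
Log2 difference, libraries labelled KO minus WT, for each of the 5 genes with all 6 libraries (diamond, bar: standard error), with 1 library left out (circles) and under the other settings (triangles). Mest and Sfrp5 stay above 0 throughout, and for Mest, whose groups do not overlap, leaving out a library could not change that. Npr3, Bmp3 and Nnat have values on both sides of 0 with a library left out.

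The genes whose profile was most like each member were taken by the smallest root mean square difference of centred log2(FPKM + 1) values over the 6 libraries, among 12205 genes. Since they were chosen by likeness in these same libraries, an order or gap that they share with the member is no separate result. For Mest they were Shisal2a (0.57), Kcnq1 (0.59), Fam20c (0.61), Emp1 (0.62) and Tesc (0.64), against a median of 1.08 over all genes. Emp1 had 123, 262 and 197 FPKM in WT 1 to 3 and 360, 282 and 299 FPKM in KO 1 to 3, with WT 1 lowest as for Mest. Kcnq1, an imprinted gene for a potassium channel subunit, had at most 1.46 FPKM in WT and up to 4.56 FPKM, in KO 1. Its groups did not overlap, against 10.1% of all genes with KO above WT. For Sfrp5 they were Slc1a1 (0.52), Cys1 (0.55) and Crtac1 (0.56), against a median of 1.12. Slc1a1, a glutamate transporter gene, had 6.74, 3.17 and 2.14 FPKM in KO 1 to 3 and between 1.01 and 2.30 FPKM in WT. For Npr3 they were Rhod, Gsdme and Thnsl1 (0.13 each), for Bmp3 Adap1, Ccl25 and Vstm2b (0.09 to 0.15), and for Nnat Tmem45b, Prtn3 and Dtna (0.26 to 0.28). The medians over all genes were 0.37 for Npr3, 0.44 for Bmp3 and 0.65 for Nnat. Among the 5 genes themselves the closest pair was Npr3 and Bmp3 (0.25), and Mest and Sfrp5 differed by 0.80.

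The neighbours of Mest on chromosome 6 had smaller log2 differences in these libraries. Mest (ENSMUSG00000051855) lies on the plus strand of GRCm38 from 30723547 to 30748465. Copg2, a coat protein gene on the minus strand, shares 912 exonic bases with it, and the 2 cannot be fully told apart unless strand was used in counting, which is not stated. Copg2 had 17.4, 17.1 and 22.5 FPKM in WT 1 to 3 and 17.9, 18.5 and 16.8 FPKM in KO 1 to 3, overlapping groups. Klf14, a transcription factor gene, was below the filter, with at most 1.45 FPKM, in KO 1. Cep41, a centrosomal protein gene 29798 bases away, had between 2.57 and 2.88 FPKM in WT and between 3.56 and 3.88 FPKM in the libraries labelled KO (log2 difference 0.32, limma adjusted p = 0.296). Of the 3 tested genes within 250 kb of Mest none passed by limma's adjusted p, and an unadjusted p under 0.05 was found for 1, against 13.6% of all genes.

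Nnat lies inside Blcap on chromosome 2, from 157560078 to 157562522 on the plus strand, with no shared exonic base. Blcap, on the minus strand, had 106, 124 and 142 FPKM in WT 1 to 3 and 98.8, 94.5 and 96.4 FPKM in KO 1 to 3. Its log2 difference was -0.35 (limma adjusted p = 0.329). KO was below WT without overlap for Blcap, as for 12.2% of all genes, while the groups of Nnat overlapped. Of the 5 tested genes within 250 kb of Nnat none passed by limma's adjusted p. An unadjusted p under 0.05 was found for 1, Blcap, against 13.6% of all genes. Crtac1, one of the genes most like Sfrp5, lies 80783 bases from it on chromosome 19. Crtac1 had 1.59, 1.66 and 3.43 FPKM in WT 1 to 3 and 9.41, 9.10 and 2.66 FPKM in KO 1 to 3 (limma adjusted p = 0.302). Its KO 3 value lay among the WT libraries, which its choice by likeness to Sfrp5 favours. Zfyve27, the tested gene nearest to Sfrp5, had between 12.8 and 14.4 FPKM in WT and between 12.2 and 13.3 FPKM in the libraries labelled KO. Of the 10 tested genes within 250 kb of Sfrp5 none passed by limma's adjusted p, and an unadjusted p under 0.05 was found for 3, against the same 13.6%. The 2 tested genes within that distance of Npr3, Sub1 and Zfr, had log2 differences of -0.39 and -0.09, and Bmp3 had no tested neighbour.

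Other genes tied to adipocyte size and fat expansion had no common direction. Of 16 such genes, all tested, the libraries labelled KO were higher for 5 and lower for 11 (median -0.08), while 40.8% of all genes were higher. By limma none passed the adjusted threshold. At an unadjusted p under 0.05 there were 3, against 13.6% of all genes. Egfl6, a secreted protein made during fat expansion, had 1.29, 0.373 and 0.053 FPKM in WT 1 to 3 and 3.22, 3.68 and 1.94 FPKM in KO 1 to 3 (log2 difference 1.38, limma adjusted p = 0.223). Its values were highest in WT 1 within WT, as those of Epcam were. Cidec, which enlarges lipid droplets, had 2596 ± 351 FPKM in WT and 1837 ± 110 FPKM (SD, n = 3 each) in the libraries labelled KO, a log2 difference of -0.49 (limma adjusted p = 0.367). Slc7a10, an amino acid transporter of adipocytes, had a log2 difference of -0.42 and Igf1, a growth factor, one of -0.52. Lep, which encodes leptin and follows fat mass, had 209, 129 and 456 FPKM in WT and 268, 192 and 182 FPKM in KO 1 to 3, inside the WT range throughout. Cav1, the main coat protein of caveolae, had 1521 ± 258 and 1388 ± 22 FPKM (SD, n = 3 each) in the same order.

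Wnt ligands, receptors and inhibitors, among which Sfrp5 acts, had no gene past limma's adjusted threshold. Of 19 Wnt ligands 6 were tested, with 4 higher and 2 lower (median 0.13). None had an unadjusted p under 0.05, against 13.6% of all genes. Wnt5a, a ligand that Sfrp5 is known to bind, had between 7.56 and 8.91 FPKM in WT and between 7.33 and 11.3 FPKM in the libraries labelled KO. Of 15 receptors 11 were tested, with 6 higher and 5 lower (median 0.03). An unadjusted p under 0.05 was found for 1, Fzd6, against the same 13.6% of all genes. Fzd6 had 9.99, 5.68 and 2.90 FPKM in WT 1 to 3 and 13.5, 14.1 and 9.63 FPKM in KO 1 to 3, so that WT 1 was above KO 3. Lrp5, a coreceptor, had a log2 difference of 0.50 (limma adjusted p = 0.490). It was the 1 tested receptor with KO above WT without overlap, against 10.1% of all genes. Fzd4, the most abundant receptor, had between 122 and 154 FPKM in WT and between 128 and 145 FPKM in the libraries labelled KO.

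Of the 10 other secreted Wnt inhibitors 5 were tested, with 4 higher and 1 lower (median 0.71). None passed by limma's adjusted p, and 3 (Notum, Dkk3 and Sfrp1) had an unadjusted p under 0.05 and higher values, against 9.13% of all genes. The relatives of Sfrp5 differed among themselves. Sfrp1 had 12.3, 9.98 and 6.74 FPKM in WT 1 to 3 and 12.7 FPKM in KO 1 and at least 17.9 FPKM in KO 2 and KO 3, groups that did not overlap (log2 difference 0.71, limma adjusted p = 0.252). KO 1, with the most Sfrp5, had the least Sfrp1 of the libraries labelled KO. Sfrp2 had 10.5, 21.2 and 5.47 FPKM in WT and 9.30, 8.42 and 13.1 FPKM in KO 1 to 3, and Sfrp4 had a log2 difference of 0.34, both with overlapping groups. Frzb was below the filter, with at most 0.869 FPKM, in WT 2.

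Genes known to be switched on by Wnt signalling had higher values in the libraries labelled KO, and none passed limma's adjusted threshold. All 8 tested of 10 were higher (median 1.27), 5 had an unadjusted p under 0.05 and higher values, against 9.13% of all genes, and 6 had groups that did not overlap, against 10.1%. Notum, an enzyme that inactivates Wnt ligands and counts in both lists, had 1.44 and 0.048 FPKM in WT 1 and WT 2, a listed 0 in WT 3, and 3.94, 5.04 and 2.65 FPKM in KO 1 to 3 (limma adjusted p = 0.223). Tcf7, a transcription factor of the pathway, had 4.10, 1.25 and 0.534 FPKM in WT and 8.23, 7.81 and 4.74 FPKM in KO 1 to 3. Rnf43, which removes Wnt receptors from the cell surface, had 1.61, 0.085 and 0.048 FPKM in WT and 2.55, 3.92 and 1.93 FPKM in KO 1 to 3. Ccnd1, the cell cycle gene for cyclin D1, had a log2 difference of 1.27. Axin2 and Nkd1, also in this list, had overlapping groups. The log2 difference of Axin2 was 0.55 (limma adjusted p = 0.442), with WT 3 above KO 2 and KO 3. That of Nkd1 was 0.44 (limma adjusted p = 0.469), with WT 2 above KO 3.

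In 6 of the 8, WT 1 was the highest WT library, against 22.3% of all genes, and in 7 of the 8 KO 3 was the lowest library labelled KO, against 40.1%. Epcam too was highest in WT 1 within WT and lowest in KO 3 within those labelled KO, and it stood in WT 1 at 52.4% of its mean in the libraries labelled KO. Notum stood there at 37.2%, Tcf7 at 59.2%, Rnf43 at 57.5% and Sp5 at 43.2%, whereas Mest stood at 14.8% and Sfrp5 at 15.6%. The multiciliated cell list, of which all 14 tested genes of 16 in the table were higher (median 1.77) and 12 had KO above WT without overlap, against 10.1% of all genes, summed to 44.1, 4.17 and 2.40 FPKM in WT 1 to 3. Its sums in KO 1 to 3 were 121, 122 and 54.6 FPKM, and Foxj1, its defining transcription factor, was listed at 0 in WT 3. With the mean level of the multiciliated cell list as a covariate, the median of the 8 genes was 0.12 and the Mest difference 2.89. That covariate is partly confounded with group. The part of epithelial or ciliated cell RNA in the Wnt target and Mest differences was not tested. Without WT 1, Tcf7, Rnf43, Sp5 and Notum passed limma's adjusted threshold, as did 3.84% of all genes, and the smallest adjusted p of the list was 0.0109. With sample weights Notum and Axin2, whose own groups overlapped, passed, as did 7.74% of all genes.

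**Figure D3:**
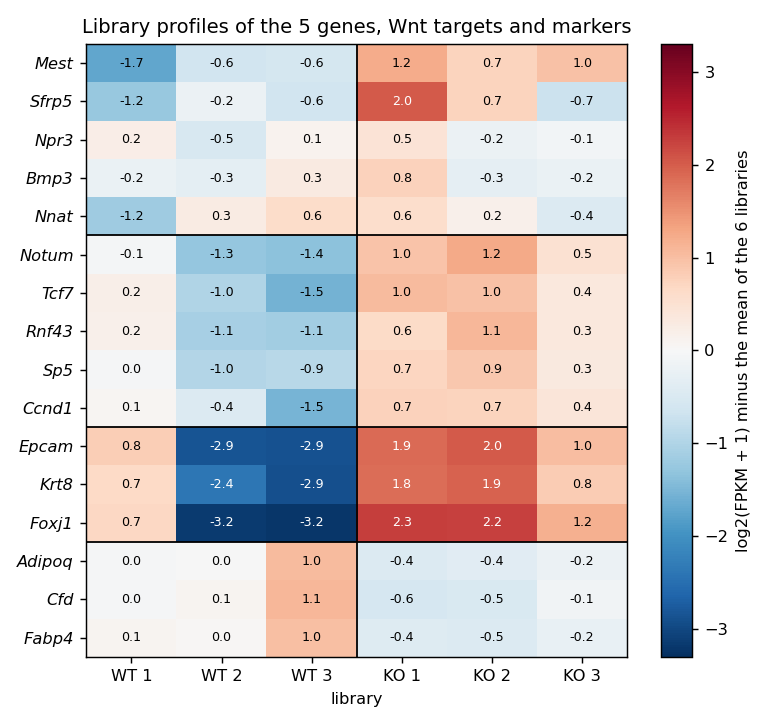
Log2(FPKM + 1) minus the mean of the 6 libraries, one column per library, for the 5 genes, the 5 Wnt target genes with the largest differences, the epithelial and ciliated cell markers Epcam, Krt8 and Foxj1, and the adipocyte genes Adipoq, Cfd and Fabp4 (red above, blue below the mean). WT 1 has its lowest values in Mest (-1.70), Sfrp5 (-1.24) and Nnat (-1.18) and stands above WT 2 and WT 3 in Epcam (0.81 against -2.86 in each).

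The natriuretic peptide system around Npr3 showed its receptors and few ligands. Nppa was listed at 0 in every library, and Nppb and Ostn, a decoy ligand of Npr3, were each above 0 in a single library. Npr1, the receptor that makes cyclic GMP and drives lipolysis, had 30.0, 34.1 and 20.5 FPKM in WT and 27.5, 29.0 and 28.8 FPKM in KO 1 to 3. Npr2 had between 39.2 and 41.8 FPKM in WT and between 35.8 and 41.3 FPKM in the libraries labelled KO. The Npr3 level was above that of both signalling receptors in every library. Of the 9 tested genes 8 were higher in the libraries labelled KO (median 0.21), against 40.8% of all genes. None was past the adjusted threshold of limma. An unadjusted p under 0.05 was found for 1 of the 9, against 13.6% of all genes. That was Corin, a protease that processes natriuretic peptides. Corin had 1.09 and 0.118 FPKM in WT 1 and WT 2 and a listed 0 in WT 3. It had 1.99, 2.36 and 0.735 FPKM in KO 1 to 3, so that WT 1 was above KO 3.

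Among BMP and activin genes, the closest relative of Bmp3 had nearly equal means. Gdf10 had 19.3 ± 3.61 FPKM in WT and 19.2 ± 3.11 FPKM (SD, n = 3 each) in the libraries labelled KO. Of 7 tested ligands 4 were higher (median 0.23), and 1 had an unadjusted p under 0.05, against 13.6% of all genes. That was Bmp7, with 1.78, 0.399 and 0.562 FPKM in WT 1 to 3 and 3.88, 4.16 and 1.92 FPKM in KO 1 to 3 (limma adjusted p = 0.223). Of 9 receptors 7 were higher (median 0.09). Acvr2b, a type II receptor that Bmp3 is known to bind, had 1.65 ± 0.191 FPKM in WT and 1.78 ± 0.179 FPKM (SD, n = 3 each) in the libraries labelled KO. Bmpr1b had 1.51, 0.626 and 0.109 FPKM in WT and 3.04, 3.07 and 1.96 FPKM in KO 1 to 3 (limma adjusted p = 0.223). Bmp7 and Bmpr1b were, like Epcam, highest in WT 1 within WT and lowest in KO 3 within the libraries labelled KO; the part of epithelial RNA in them was not tested. Of 9 tested BMP inhibitors 6 were higher (median 0.15), and of 8 tested target genes 5 (median 0.25). The largest differences among the inhibitors were those of Smad7 (0.51) and, in the other direction, Chrdl1 (-0.45, overlapping groups). Hey1, a target gene that encodes a transcription repressor, had 5.67, 3.91 and 4.21 FPKM in WT and 8.20, 6.67 and 7.57 FPKM in KO 1 to 3 (log2 difference 0.61, limma adjusted p = 0.223). No gene of these BMP lists passed the adjusted threshold of limma. An unadjusted p under 0.05 was found for 1 receptor (Bmpr1b), 0 inhibitors and 2 target genes (Hey1 and Id2), against 13.6% of all genes.

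Other imprinted genes of the network to which Mest belongs had no common direction. Of the 20 listed 15 were tested and 2 were not analysed here, with 6 higher and 9 lower (median -0.02). None had an unadjusted p under 0.05, against 13.6% of all genes. Dlk1, an inhibitor of adipogenesis, had a log2 difference of 0.51 and Peg3 one of 0.44, both with overlapping groups. Peg3 had 7.13, 32.5 and 6.67 FPKM in WT 1 to 3 and 12.2, 19.8 and 17.9 FPKM in KO 1 to 3. Sgce and Zrsr1 had log2 differences of -0.33 and -0.34, and Peg10 one of -0.31. Of the 15, Sgce, a sarcoglycan gene, and Peg10 had KO below WT without overlap, 2 genes, against 12.2% of all genes.

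**Figure D4:**
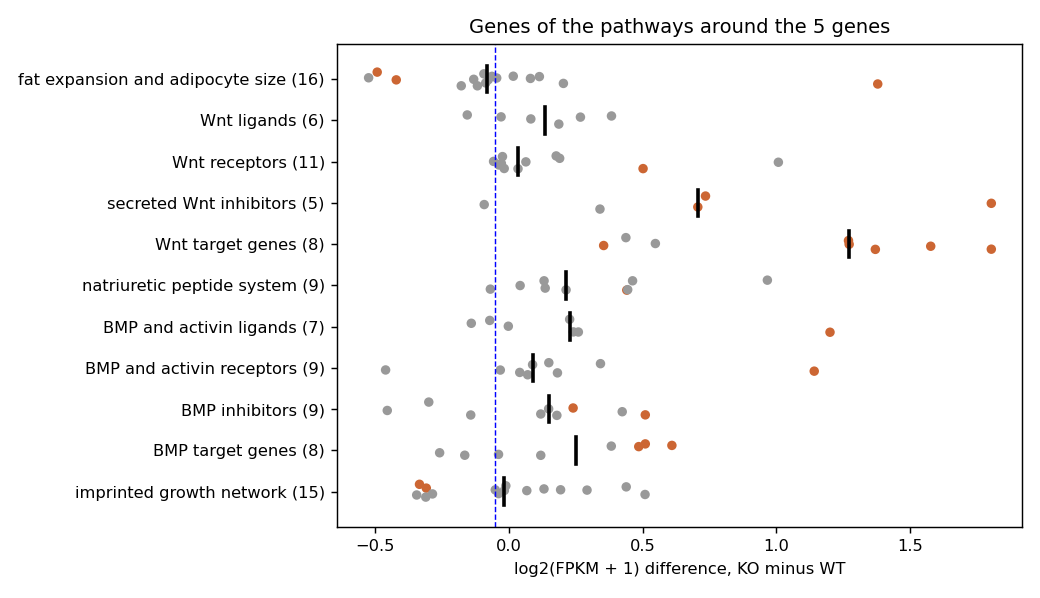
Log2(FPKM + 1) difference, libraries labelled KO minus WT, of each tested gene (dots, jittered vertically) in the lists named at the left with their number of tested genes. Orange dots have groups that do not overlap, black bars are list medians and the dashed line is the median of all tested genes (-0.05); the Wnt target genes have the highest median (1.27).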

How the data were processed

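TRIzol-extracted RNA went into stranded mRNA libraries, per the labels' protocols. Per the submitters' processing notes the tools were Cuffdiff 2.2.1, Cufflinks and STAR 2.5.4, and the build mm10. Not given in the sources used here are the annotation, filters, strand setting and library scaling. The authors deposited 1 value per gene and library, read here as FPKM. No header names the unit, which was taken from those tools and from the values: they are not whole, and the column sums differ, from 426966 to 637902. No counts are given and the total depth is unknown. From steps among low values, depth relative to WT 1 was 0.79 in WT 2, 0.824 in KO 1, 0.651 in KO 2 and 0.946 in KO 3. For WT 3 it was 1.03, the least certain value. The commonest step held 11.2% of the low genes there, against 15.1% in KO 2 and more in the others.

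The table has 21853 rows, and for 24 repeats of a symbol the row of higher mean stayed. Log2(FPKM + 1) values of genes averaging 1 FPKM or more entered limma 3.58.1 (R 4.3.3), whose model held group alone and used the mean-variance trend. P-values were adjusted over all 12539 genes by the Benjamini-Hochberg method. This scale understates the change of low genes. The fit was tested on simulated data. Gene positions are those of GENCODE vM21 (GRCm38, which is mm10), and promoter windows from RefSeq on GRCm38.p6, where 4 of the 5 genes matched.

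The members and all gene lists were chosen with earlier results of these data known. Named were the 5 genes and Zfp251, up to 4 tested genes of each list with the largest absolute log2 difference, fixed relatives, genes within 250 kb, and the genes with the most similar profile (5 for Mest, 3 for each other gene). Wnt5a, Fzd4, Sp5, Axin2, Nkd1, Znrf3, Peg10, Id2, Acvr2b, Nppa, Nppb, Ostn and the marker genes were named outside that rule, after their values were seen. The alternatives were 2 other pseudocounts, 2 other filters, median-ratio and quantile scaling, no trend, sample weights, each library left out, a replicate block, a multiciliated cell covariate, a length and GC correction and, added after the data were seen, scaling to adipocyte markers.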

Additional observations from a re-analysis of the deposited data

How the results depend on the processing

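The number of genes past limma's adjusted threshold was 0 in all settings except sample weights (970) and without WT 1 (482), so it ran from 0 to 482 with a library left out. Zfp251 passed in the same 2 settings, with log2 differences of 0.64 and 0.78, and ran from 0.65 to 0.78 with a library left out. Mest and Sfrp5 stayed above 0 in every setting run. For Mest, whose groups do not overlap, leaving out a library could not change the sign. Sfrp5 was 1.03 (standard error 1.24) with the multiciliated covariate and 0.70 (standard error 0.49) without KO 1. With a library left out Mest ran from 1.59 to 2.15, Sfrp5 from 0.70 to 2.07, Npr3 from -0.11 to 0.26, Bmp3 from -0.17 to 0.36 and Nnat from -0.32 to 0.56. With the multiciliated covariate, which is partly confounded with group, Mest was 2.89, Nnat 1.19 and Npr3 -0.34, the Wnt target median was 0.12 and the natriuretic median -0.11. With sample weights Mest was 2.61, Sfrp5 2.39, Nnat 1.31 and Bmp3 0.54. Under quantile normalization the Nnat log2 difference was 0.72, of the same sign as without it. The Bmp3 difference was then -0.077. The medians were 0.20 for fat expansion, -0.14 for BMP inhibitors, -0.06 for Wnt ligands and 0.04 for imprinted genes. For Bmp3 and each of these lists the sign was opposite to that without it.

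Scaling to adipocyte markers moved the median of all genes by 0.39. Npr3 was then 0.51, and list medians were 0.31 for fat expansion, 0.52 for Wnt ligands, 0.42 for Wnt receptors, 0.60 for the natriuretic system, 0.37 for imprinted genes, and 0.62, 0.48, 0.54 and 0.64 for BMP ligands, receptors, inhibitors and targets. At a mean of at least 5 FPKM, where Bmp3 and Zfp251 have no value and fewer genes remain, the Wnt target median was 0.55, and with no filter the Wnt inhibitor median was 0.13. Where not stated, the cause of these shifts was not tested.

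Same-numbered libraries deviated with correlations of 0.228, -0.2 and 0.22 over genes, so the numbers were not taken as pairs. With a replicate block no gene passed and the Mest difference was 1.95; 1714 genes had an unadjusted p under 0.05, against 1700 without it.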
